A study of Mus musculus with 16 samples.

Results

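The dual-specificity MAP kinase phosphatases described here are 9 genes, Dusp1, Dusp2, Dusp4, Dusp5, Dusp6, Dusp7, Dusp8, Dusp10 and Dusp16. They were chosen by name, as all non-control probes that the array files assign to one of these symbols, which gave 12 of the 55681 probes. All 9 were among the 15877 genes tested. The cells were RAW264.7, a single macrophage-like line from a mouse tumour, kept in medium with little serum before treatment. Cultures received DMSO, the vehicle, or 20 μM cordycepin, an adenosine analogue that inhibits polyadenylation, for 60 min. LPS, the bacterial lipopolysaccharide that activates macrophages through Tlr4, was then added at 1 μg/ml for 60 min or left out. The cultures without LPS are called DMSO and cordycepin below and those with it LPS+DMSO and LPS+cordycepin, 4 conditions in which all cells spent 120 min in DMSO or cordycepin. Each condition had 4 cultures with 1 Cy3-labelled array each, 16 arrays in all, and a replicate number marks the cultures of one day.

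MAP kinase phosphatases switch off the MAP kinases ERK, JNK and p38 by removing phosphate from both the threonine and the tyrosine of the activation loop. Many of their mRNAs are made in response to the same kinases, so that the enzymes limit the signal that induced them. In macrophages Dusp1 is best known for ending p38 and JNK signalling after LPS. Members differ in place and substrate, and are ordered here as the inducible nuclear enzymes (Dusp1, Dusp2, Dusp4, Dusp5), the cytoplasmic enzymes that prefer ERK (Dusp6, Dusp7), and the enzymes that prefer JNK and p38 (Dusp8, Dusp10, Dusp16).

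Levels are log2 of the spot signal after background subtraction, scaled on each array to its 75th percentile, and a difference of 1 is 2-fold. Between 37.1% and 51.2% of the spots on an array were well above background by the scanner software's test, with 37.1% to 43.9% on the slide of replicates 1 and 2 and 45.8% to 51.2% on that of replicates 3 and 4. No spot was saturated. All 9 macrophage markers examined (Adgre1, Itgam, Cd14, Cd68, Csf1r, Lyz2, Ptprc, Tlr4, Spi1) were well above background on all 16 arrays. Of the markers of other cell types, Ncr1 was so on 0 arrays, Epcam and Col1a1 on 1 each, Pecam1 on 10 and Cd3e on 16.

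LPS changed 8 of the 9 phosphatase mRNAs within 60 min, and it did so in both directions. Dusp1, Dusp2, Dusp4, Dusp5, Dusp8 and Dusp16 rose, each by more than 2-fold, and Dusp6 and Dusp7, the cytoplasmic ERK phosphatases, fell. Among all genes tested, 5.14% rose and 9.80% fell with LPS, and 2.09% rose and 2.49% fell by at least 2-fold. A call here is an adjusted p under 0.05 by limma over all genes tested. In these bulk cultures, fewer cells with an mRNA and less of it per cell cannot be told apart. Dusp1, Dusp2, Dusp4, Dusp6, Dusp7 and Dusp16 had a probe well above background on all 16 arrays, and of these 6 genes 4 rose and 2 fell, with a median log2 change of 1.84 against -0.04 over all genes. Dusp5, Dusp8 and Dusp10 passed the filter on dim probes only through a condition with LPS, so their place among the genes tested itself depended on a high level there.

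Among the nuclear enzymes, Dusp1 dephosphorylates p38, JNK and ERK. Its probe for NM_013642 is placed by the array files on mm9 chromosome 17, 26642526 to 26642536, a span of 11 bases that is shorter than the probe. The log2 signal of Dusp1 was 7.49, 8.61, 7.67 and 7.86 in the 4 DMSO cultures (replicates 1 to 4) and 11.76, 11.94, 11.90 and 12.48 with LPS+DMSO. All LPS values lay above all DMSO values. The rise was 4.11 on the log2 scale (SE 0.22, 17.3-fold, adjusted p = 2.78e-09), and by day it ranged from 3.33 to 4.62.

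Dusp2, a nuclear phosphatase of activated haematopoietic cells that prefers ERK and p38 (NM_010090; mm9 chromosome 2, 127163930 to 127163989), had replicates close to each other. Its log2 signal was 10.78, 10.72, 10.90 and 10.73 in DMSO and 14.26, 14.29, 14.10 and 14.08 in LPS+DMSO. The rise of 3.40 (SE 0.08, 10.6-fold, adjusted p = 6.46e-13) was far larger than the range of values within either condition.

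Dusp4, which acts on nuclear ERK and JNK (NM_176933; mm9 chromosome 8, 35882045 to 35882104), rose less. Its log2 signal was 10.67, 11.35, 10.61 and 10.69 in DMSO and 12.65, 12.47, 12.44 and 12.59 in LPS+DMSO. The change was 1.71 (SE 0.16, 3.27-fold, adjusted p = 1.32e-06), from 1.12 on the day of replicate 2, whose DMSO culture stood above the others, to 1.99.

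Dusp5 is a nuclear phosphatase specific for ERK (NM_001085390; mm9 chromosome 19, 53615682 to 53615741). Without LPS it was near background, with a log2 signal of 3.92, 3.96, 5.55 and 3.22 in DMSO, well above background on 1 of 4 arrays. With LPS it was 8.12, 7.44, 7.83 and 7.39 and well above background on all 4. The fitted rise, against a DMSO level mostly not well above background, was 3.53 (SE 0.37, adjusted p = 6.61e-06). Its size depended on how the background was treated, being 1.51 with normexp background correction (adjusted p = 0.000564; range over all alternatives 5.65e-10 to 0.0123).

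The cytoplasmic ERK phosphatases went the other way. Dusp6 (NM_026268; mm9 chromosome 10, 98729985 to 98730044) had a log2 signal of 11.26, 11.43, 11.13 and 10.84 in DMSO and 10.05, 10.01, 9.76 and 9.46 in LPS+DMSO, without overlap. It fell by 1.34 (SE 0.16, 2.54-fold lower, adjusted p = 2.97e-05), and the daily differences were as close together as -1.20 to -1.42.

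Dusp7, a close relative of Dusp6, was read by a pair of overlapping probes on mm9 chromosome 9, from 106277943 to 106278000 (BC025048) and from 106277985 to 106278044 (NM_153459), which share a run of 15 bases and are not independent. The second stands for the gene as the brighter. Its log2 signal was 9.93, 9.11, 9.99 and 9.98 in DMSO and 9.02, 9.02, 8.79 and 9.09 in LPS+DMSO. It fell by 0.77 (SE 0.18, 1.71-fold lower, adjusted p = 0.00764), but on the day of replicate 2, whose DMSO culture was low, the difference was only -0.08. The other probe fell by 0.73 (adjusted p = 0.0265 with every probe tested on its own). The call was lost without the day of replicate 1 (-0.73, adjusted p = 0.0793), 3 (-0.63, 0.112) or 4 (-0.73, 0.0734), and over all alternatives the adjusted p ranged from 7.14e-05 to 0.404.

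Of the JNK and p38 phosphatases, Dusp8 changed most. Both of its probes for NM_008748, on mm9 chromosome 7 at 149265961 to 149266020 (the first) and 149267534 to 149267593 (the second, brighter), were not well above background on any of the 8 arrays without LPS and well above it on all 8 with LPS. The second probe gave 4.13, 4.16, 2.56 and 2.76 in DMSO, values below the detection limit that differed between the slides, and 8.15, 8.05, 8.05 and 8.62 in LPS+DMSO. Set against the lowest signal that counted as well above background, Dusp8 was at least 8.86-fold higher with LPS by this probe and at least 3.59-fold higher by the first. The fitted change was 4.82 (SE 0.38, adjusted p = 2.51e-07), with 3.96 on one slide and 5.67 on the other, and it was 1.77 with normexp background correction (adjusted p = 0.000879; range over all alternatives 1.64e-16 to 0.00274).

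Dusp16 prefers JNK and shuttles between cytoplasm and nucleus. It was read by a probe on mm9 chromosome 6 at 134665783 to 134665842, which stands for the gene, and a dimmer one at 134668003 to 134668062, both for NM_130447. The log2 signal of the brighter was 10.62, 10.39, 10.13 and 9.92 in DMSO and 12.28, 12.18, 12.15 and 12.30 in LPS+DMSO. The rise of 1.96 (SE 0.14, 3.89-fold, adjusted p = 8.71e-08) was seen on all 4 days, from 1.65 to 2.38. The dimmer probe, well above background on 10 of the 16 arrays, rose by 2.70 (SE 0.34, adjusted p = 4.04e-05 with every probe tested on its own).

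Dusp10, which acts on p38 and JNK, was the one member that did not pass the test (NM_022019; mm9 chromosome 1, 185898608 to 185898667). Its log2 signal was 5.75, 5.47, 4.95 and 3.63 in DMSO and 6.22, 6.38, 5.59 and 5.92 in LPS+DMSO, so that the conditions overlapped, although each day had the higher value with LPS. The difference was 1.08 with a 95% interval of 0.05 to 2.11 (adjusted p = 0.168). It was well above background on 1 array in each of the other conditions and on all 4 in LPS+DMSO.

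**Figure D1:**
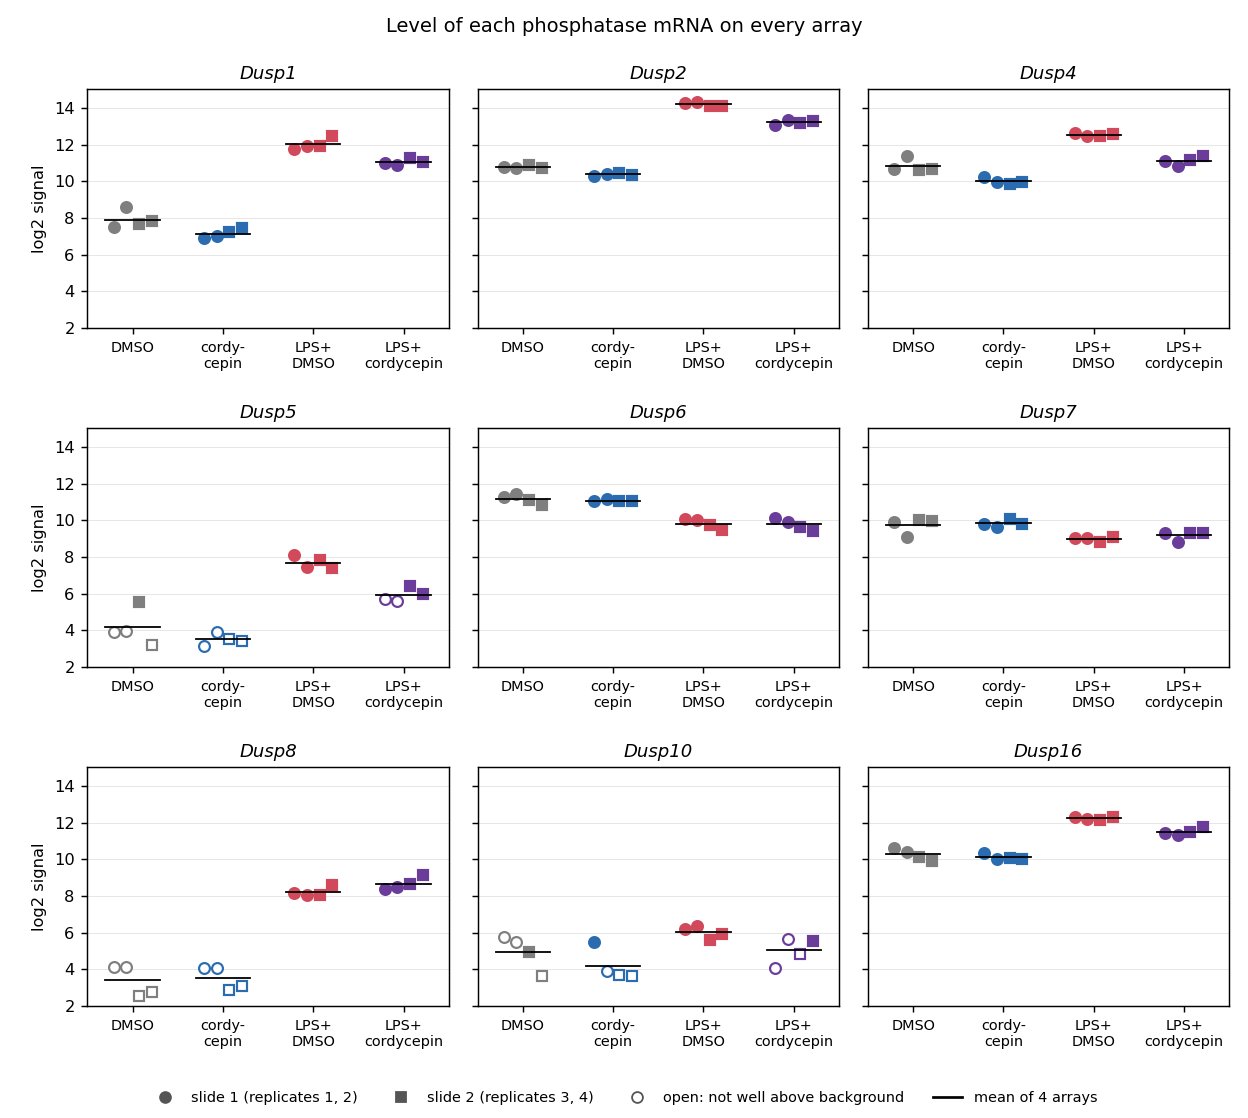
Log2 signal of the 9 phosphatase genes on each of the 16 arrays, by condition, with circles for the slide of replicates 1 and 2, squares for that of replicates 3 and 4, open symbols for spots not well above background and a line at the mean of 4 arrays; levels can be compared within a panel, not between genes. Dusp1, Dusp2, Dusp4, Dusp5, Dusp8 and Dusp16 are higher on all arrays with LPS+DMSO than on all with DMSO, Dusp6 and Dusp7 are lower, and Dusp10 overlaps.

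The sequence before the start site was examined in 8 members that have a window in the RefSeq table (build GRCm38.p6), since 6 of the 9 genes rose together. Dusp4, which also rose, had no window there and was not searched. The windows searched were the 250 bases before the annotated start, on both strands. The cAMP response element (CRE) TGACGTCA, bound by CREB and ATF factors, was in Dusp1 (-143 to -136 from the start) and at both -107 to -100 and -63 to -56 in Dusp8, and is in 1.55% of the 32851 windows in the table. A pair of adjacent CArG boxes, the core of the serum response element bound by SRF, lay at -82 to -63 in Dusp5, and 1.47% of all windows hold one. The shorter TGACG, which also forms part of the CRE, was in Dusp1, Dusp5, Dusp8 and Dusp16 (17.8% of all windows), and the E-box CACGTG was in Dusp1 and Dusp2 (6.02%). The AP-1 site TGACTCA (4.46% of all windows), the TATA box TATAAA (12.4%) and the NF-kB consensus (7.25%) had 0 matches in the 8 windows. A match is a stretch of letters and was not tested as a binding site. The 160 bases before the start are shown for the genes that hold a CRE or CArG box and, as a member that fell, for Dusp6, each 5′ to 3′ on the strand of the gene with the matches in capitals. The windows are chr17:26508473-26508632 (minus strand), chr19:53528985-53529144 (plus), chr7:142095285-142095444 (minus) and chr10:99263071-99263230 (plus), in this order.
Dusp1: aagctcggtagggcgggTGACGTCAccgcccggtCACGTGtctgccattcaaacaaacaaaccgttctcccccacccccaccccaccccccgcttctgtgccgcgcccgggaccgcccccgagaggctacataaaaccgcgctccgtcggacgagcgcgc
Dusp5: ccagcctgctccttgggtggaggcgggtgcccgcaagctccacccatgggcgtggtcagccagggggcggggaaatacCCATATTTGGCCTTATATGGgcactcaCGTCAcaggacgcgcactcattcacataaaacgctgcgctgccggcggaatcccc
Dusp8: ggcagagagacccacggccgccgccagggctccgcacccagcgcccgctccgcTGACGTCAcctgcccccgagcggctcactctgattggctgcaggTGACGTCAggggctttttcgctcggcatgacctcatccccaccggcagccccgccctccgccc
Dusp6: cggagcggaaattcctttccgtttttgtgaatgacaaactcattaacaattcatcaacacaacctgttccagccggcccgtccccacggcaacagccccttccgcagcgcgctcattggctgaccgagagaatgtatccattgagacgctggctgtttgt

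Cordycepin without LPS lowered 3 of the 9 mRNAs, the nuclear enzymes Dusp1, Dusp2 and Dusp4, each by less than 2-fold, and raised 0 (by limma, and 0 at an unadjusted p under 0.05). Of all genes tested 7.55% were lower and 8.23% higher in this comparison, whose DMSO arrays also serve the LPS comparison. Dusp4 had a log2 signal of 10.23, 9.94, 9.84 and 9.94 in cordycepin, all below the lowest DMSO value of 10.61, and fell by 0.84 (SE 0.16, 1.79-fold lower, adjusted p = 0.00113). Dusp2, at 10.31, 10.41, 10.46 and 10.34, fell by 0.40 (SE 0.08, 1.32-fold lower, adjusted p = 0.00316), with daily differences of -0.31 to -0.47. For both, the groups did not overlap. With scaling to spiked-in control probes the values of Dusp4, Dusp2 and Dusp1 were -0.78, -0.34 and -0.69, and 0 of these 3 calls were kept (adjusted p = 0.566, 1 and 0.826).

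Dusp1 had a log2 signal of 6.89, 7.0, 7.26 and 7.46 in cordycepin, just under the lowest DMSO value of 7.49. The difference was -0.76 (SE 0.22, 1.69-fold lower, adjusted p = 0.0251), of which the day of replicate 2 gave -1.61 and the others -0.40 to -0.60. Without the DMSO culture of replicate 2 it was -0.52 (adjusted p = 0.0577), and without that day -0.47 (adjusted p = 0.174). The call was also lost without the day of replicate 1 (adjusted p = 0.0578) or 3 (0.0786), and without the cordycepin culture of replicate 1 (0.0757) or 2 (0.0737), within a range of 0.00406 to 0.826 over all alternatives.

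The other 6 members gave no call with cordycepin alone. The 95% intervals were narrow for Dusp6 (-0.45 to 0.25), Dusp7 (-0.31 to 0.46) and Dusp16 (-0.47 to 0.13), so that a 2-fold change of these lies outside them. They were wide for the dim genes Dusp5 (-1.44 to 0.14), Dusp8 (-0.67 to 0.94) and Dusp10 (-1.79 to 0.27). For Dusp8 no change could be read, since neither condition had a signal well above background.

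In LPS-stimulated cells cordycepin lowered 5 of the 9 mRNAs and raised 0 (by limma, and 0 at an unadjusted p under 0.05). Dusp4 was lower by more than 2-fold and Dusp1, Dusp2 and Dusp16 by less, and for Dusp5 the size depended on the background correction. Dusp5 passed the filter on dim probes only through LPS+DMSO, the higher condition here, so its fall is not independent of the filter. Over all genes tested, 8.45% were lower and 10.8% higher, with 1.52% lower by at least 2-fold, and the median log2 change of all genes was 0.03. All 5 that fell are genes that LPS had raised, and both comparisons use the LPS+DMSO arrays. Among the 6 genes on all 16 arrays, 4 were lower and 2 gave no call, with a median of -0.84.

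Dusp5 was dim in this comparison too. Its log2 signal with LPS+cordycepin was 5.72, 5.58, 6.42 and 6.01, below all LPS+DMSO values, the lowest of which was 7.39, and it was well above background on 2 of 4 arrays. It fell by a fitted 1.76 (SE 0.37, adjusted p = 0.00257) relative to LPS+DMSO, and on every day by at least 1.39. With normexp background correction the difference was -0.86 (adjusted p = 0.0277; range over all alternatives 6.1e-05 to 0.0473).

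Dusp4 was 11.13, 10.85, 11.15 and 11.36 in LPS+cordycepin, against 12.44 as the lowest LPS+DMSO value. It fell by 1.42 (SE 0.16, 2.67-fold lower, adjusted p = 5.63e-06). These values overlapped those of unstimulated DMSO cells, 10.61 to 11.35, a comparison for which no test was made. The overlap came only from replicate 2 of DMSO, at 11.35, which stood apart from the others. The other DMSO values, 10.61 to 10.69, lay below all LPS+cordycepin values. Dusp1, Dusp2, Dusp5, Dusp8 and Dusp16 stayed above all their DMSO values in LPS+cordycepin.

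Dusp1 was 11.00, 10.90, 11.25 and 11.04 in LPS+cordycepin and fell by 0.97 (SE 0.22, 1.96-fold lower, adjusted p = 0.00382). For Dusp2 the values were 13.08, 13.36, 13.17 and 13.28, and the fall was 0.96 (SE 0.08, 1.94-fold lower, adjusted p = 6.16e-07). Dusp16 was 11.41, 11.34, 11.51 and 11.77 and fell by 0.72 (SE 0.14, 1.65-fold lower, adjusted p = 0.00126). In each of these 3 genes the conditions did not overlap and all 4 days had the lower value with cordycepin. The share of all genes with no overlap or the same sign on all days is not given, here or for other members. Such statements therefore only describe the values. Scaling to spiked-in control probes gave -1.13, -1.11 and -0.88, and none of these 3 was then called (adjusted p = 0.0885, 0.064 and 0.255). The dimmer Dusp16 probe gave -0.67 (SE 0.34, adjusted p = 0.21 with every probe tested on its own).

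Dusp8 did not follow the other LPS-raised members. With LPS+cordycepin its log2 signal was 8.36, 8.47, 8.67 and 9.17, which overlapped LPS+DMSO and was higher on each of the 4 days, by 0.21 to 0.62. The difference of 0.45 had a 95% interval of -0.35 to 1.25 (adjusted p = 0.504), and the first Dusp8 probe gave 0.53 (adjusted p = 0.572 with every probe tested on its own). A fall as large as those of Dusp1, Dusp2 or Dusp4 lies outside this interval. The difference between genes was not tested.

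Dusp6 and Dusp7, the members that LPS lowered, gave no call for cordycepin. Dusp6 was 10.11, 9.91, 9.64 and 9.42 in LPS+cordycepin, interleaved with LPS+DMSO, and the difference was -0.05 with a 95% interval of -0.40 to 0.30. Dusp7 was 9.32, 8.81, 9.29 and 9.30, and the difference was 0.20 (-0.18 to 0.58). Without the day of replicate 2, which had the low value, Dusp7 was 0.34 higher (adjusted p = 0.0405; range over all alternatives 0.0405 to 1). Dusp10 was 4.10, 5.67, 4.86 and 5.54, lower than LPS+DMSO on all 4 days, with a difference of -0.98 and a 95% interval of -2.02 to 0.05 (adjusted p = 0.202). Like Dusp5, Dusp10 passed the filter only through LPS+DMSO, so this direction is not independent of the filter.

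LPS still changed the family in cells that had been pre-treated with cordycepin. The same 6 genes as without cordycepin were higher in LPS+cordycepin than in cordycepin, and Dusp6 and Dusp7 were lower. Of all genes tested, 3.54% were higher and 4.61% lower. Dusp5 and Dusp8, both among the genes that rose, had passed the filter only through a condition with LPS, so their rise is not independent of it. Among the 6 genes with a probe well above background on every array, 4 rose and 2 fell, with a median log2 change of 1.27. The rise was 3.89 for Dusp1 (SE 0.22, adjusted p = 8.62e-09), 2.84 for Dusp2 (SE 0.08, adjusted p = 9.1e-12) and 1.13 for Dusp4 (SE 0.16, adjusted p = 0.000141). Dusp16 rose by 1.41 (SE 0.14, adjusted p = 5.59e-06). With scaling to spiked-in control probes the calls of Dusp4 and Dusp16 were lost (0.82 and 1.1, adjusted p = 0.463 and 0.135). Dusp8 was at least 11.8-fold higher by the second probe and at least 5.76-fold higher by the first, against the detection limit in cordycepin.

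Dusp5 was well above background on no array with cordycepin alone and on 2 with LPS+cordycepin. Its fitted rise of 2.42 (SE 0.37, adjusted p = 0.000409) was 0.83 with normexp background correction and then not called (adjusted p = 0.0733; range over all alternatives 8.36e-06 to 0.0733). Dusp6 fell by 1.29 (SE 0.16, adjusted p = 7.04e-05), from 11.03, 11.14, 11.03 and 11.04 in cordycepin. Dusp7 fell by 0.64 (SE 0.18, adjusted p = 0.0377) from 9.80, 9.66, 10.05 and 9.79, a call that was lost without any 1 of the 8 arrays of these conditions (adjusted p = 0.0525 to 0.122), without replicate 2 of LPS+DMSO (0.0506), without the day of replicate 1, 3 or 4 (0.142 to 0.211) and with the mean of both probes (0.109). Dusp10 differed by 0.85 (95% interval -0.18 to 1.89), and by 1.60 without the day of replicate 1 (adjusted p = 0.041; range over all alternatives 0.041 to 0.856).

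**Figure D2:**
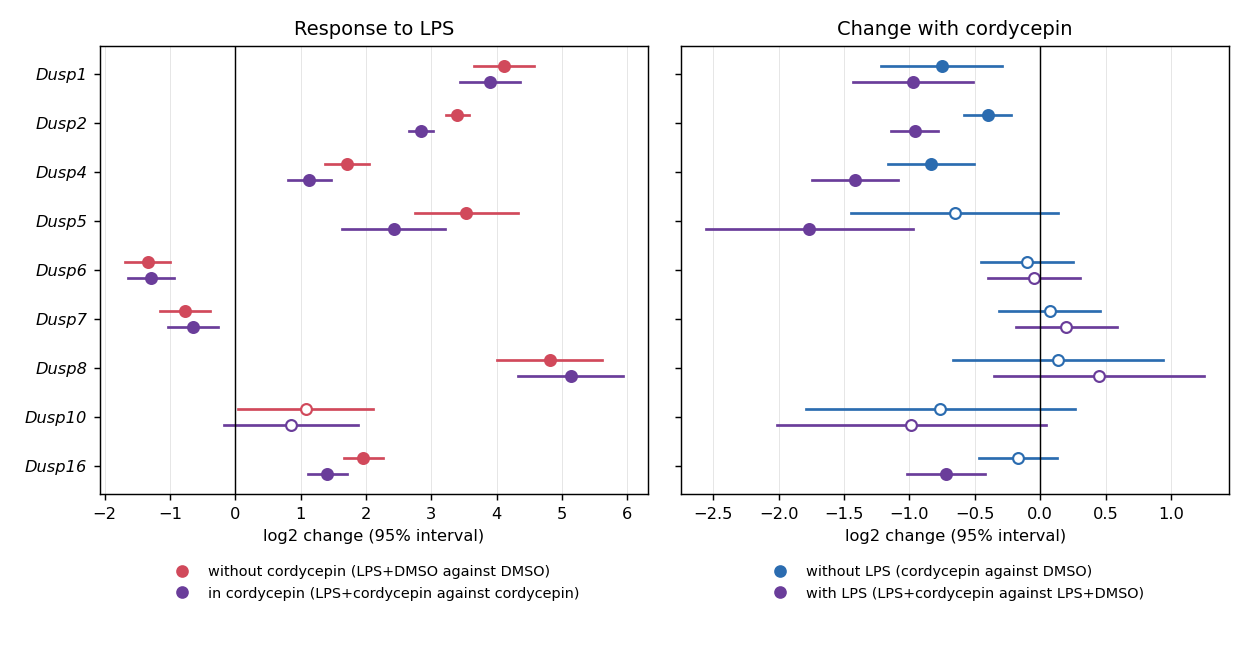
Log2 change of each phosphatase gene with its 95% interval, on the left for LPS without and with cordycepin, on the right for cordycepin without and with LPS; filled circles are past the test (adjusted p under 0.05) and the changes share control arrays. The LPS changes lie on the same side of 0 in both settings for all 9 genes, and the changes with cordycepin that passed the test are all below 0.

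Whether cordycepin changed the LPS response itself is given by the interaction, which takes the response to LPS without cordycepin away from that with it. At the threshold used, 0 of the 9 members and 0.554% of all genes had a call. At an unadjusted p under 0.05 by limma the 3 members Dusp2, Dusp4 and Dusp16 had a smaller response in cordycepin. The 0.554% does not apply to that looser threshold, for which the share of all genes is not given, so nothing is read from this count. Dusp2 was nearest, with a smaller response in cordycepin (-0.56 on the log2 scale, 95% interval -0.81 to -0.31, adjusted p = 0.0506 by limma) and differences of -0.71, -0.61, -0.50 and -0.42 on the 4 days. With the culture day as a block, which uses the pairing of the cultures, Dusp2 passed (adjusted p = 0.0481), and it passed or missed the threshold under other settings (0.0186 to 1).

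Dusp16 differed by -0.55 (95% interval -0.97 to -0.13, adjusted p = 0.369) and Dusp4 by -0.58 (-1.04 to -0.11, adjusted p = 0.438), both with a smaller response in cordycepin on all 4 days. For Dusp5 the difference was -1.11 (-2.23 to 0.01, adjusted p = 0.655), with 3 days between -1.62 and -1.83 and the day of replicate 3, whose DMSO culture was high, at 0.63. For Dusp1 the difference was -0.22 (-0.87 to 0.43), with days from -1.04 to 0.57, and -0.45 without the DMSO culture of replicate 2. Its level was lower with cordycepin both at rest, a call that depended on single cultures, and with LPS. For Dusp8 no interaction could be read, since neither condition without LPS had a signal well above background. Dusp6 (-0.44 to 0.55), Dusp7 (-0.41 to 0.67) and Dusp10 (-1.68 to 1.24) had days on both sides of 0.

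**Figure D3:**
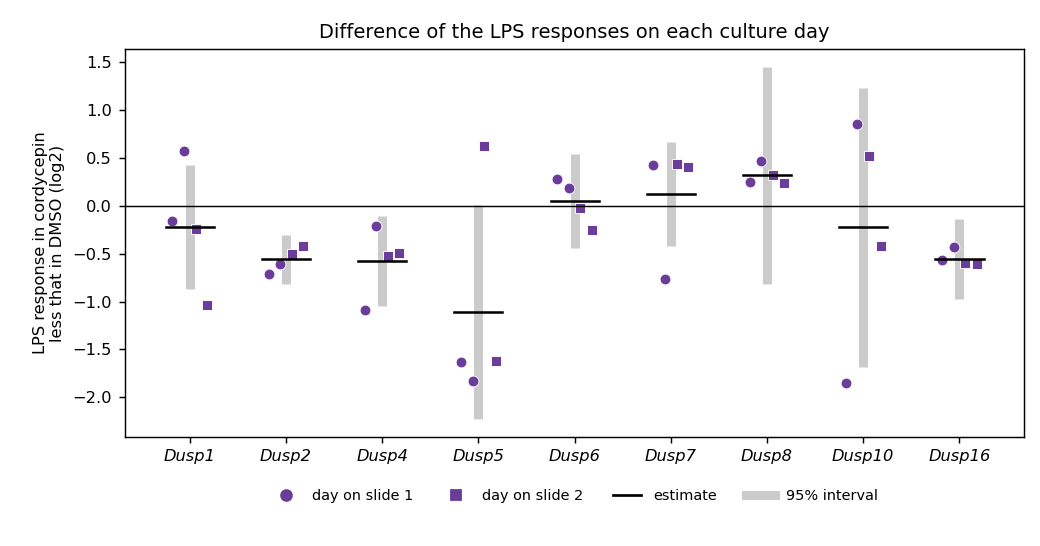
Difference between the responses to LPS with and without cordycepin (log2) for each phosphatase gene, with a point for each of the 4 culture days (circles and squares for the slides), a black line at the estimate and a grey bar for the 95% interval. All 4 days lie below 0 for Dusp2, Dusp4 and Dusp16, the points of the dim genes Dusp5 and Dusp10 spread widest, and those of Dusp8 rest on signals not well above background in both conditions without LPS.

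Ordered by level, the conditions ran LPS+DMSO, LPS+cordycepin, DMSO, cordycepin in Dusp1, Dusp2, Dusp4, Dusp5, Dusp10 and Dusp16. Neighbours in this order overlapped between LPS+cordycepin and DMSO in Dusp4 and Dusp10, between DMSO and cordycepin in Dusp5, Dusp10 and Dusp16, and between LPS+DMSO and LPS+cordycepin in Dusp10. The overlap in Dusp4 came only from replicate 2 of DMSO. Dusp8 had LPS+cordycepin highest, overlapping LPS+DMSO, and both conditions without LPS below detection. Dusp6 ran DMSO, cordycepin, LPS+DMSO, LPS+cordycepin, and Dusp7 cordycepin, DMSO, LPS+cordycepin, LPS+DMSO. In both genes each pair with the same LPS state overlapped. Conditions with and without LPS did not, other than DMSO and LPS+cordycepin in Dusp7. The sign of all 24 changes with a call was the same on both slides. These calls came from a fit of both slides together, so the agreement is no separate support.

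The genes with the nearest pattern were found by the root mean square difference of 3 log2 values, those of cordycepin, LPS+DMSO and LPS+cordycepin relative to DMSO, over the means of all 16 arrays. They are a description and share all arrays with the members. Dusp1 (-0.76, 4.11 and 3.14) was closest to Ccl4 (-0.69, 4.18 and 3.11), then Arc and Pim1, at distances of 0.06, 0.23 and 0.36. Dusp4 (-0.84, 1.71 and 0.30) was closest to Ccl5 (-0.92, 1.75 and 0.33), Nfkbie and Ifit1, at 0.05 to 0.12. For Dusp2 the nearest were Id2, Saa3 and Ccl2 (0.18 to 0.25), and for Dusp16 Plaur, Fosl2 and 2500002B13Rik (0.10 to 0.15). Dusp6 (-0.10, -1.34 and -1.39) lay nearest Spaca6, Txnip and Kif14 (0.08 to 0.14), and Dusp7 nearest 5730409E04Rik, Zkscan8 and Tmem104 (0.03 to 0.05). For Dusp5 and Dusp8 no near genes are given, since the patterns rest on DMSO signals mostly or wholly not well above background.

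The kinases upstream of these phosphatases or targeted by them are read against the 14.9% of all genes that had a call with LPS in either direction. Of 10 MAP kinases tested, 0 rose and 2 fell with LPS, Mapk7 (ERK5; -0.47, adjusted p = 0.00199) and Mapk14 (p38α; -0.23, adjusted p = 0.0429). Of 7 MAP kinase kinases, 0 had a call in any comparison by limma, and at an unadjusted p under 0.05 1 was higher in LPS+DMSO against DMSO and 1 in LPS+cordycepin against cordycepin. Of 17 MAP kinase kinase kinases 0 rose and 2 fell with LPS, Map3k1 (-0.69, adjusted p = 0.00681) and Map3k2 (-0.60, adjusted p = 0.00524). Mapkapk2, the kinase activated by p38 that stabilises inflammatory mRNAs, was the 1 of 9 MAP kinase-activated kinases that rose, by 0.70 (adjusted p = 5.54e-05). The medians of these 4 lists with LPS were -0.13, -0.01, -0.10 and 0.09.

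With cordycepin, changes among the kinases ran both ways. Of all genes, 8.23% were higher and 7.55% lower with cordycepin alone, and 10.8% and 8.45% in LPS-stimulated cells. In LPS-stimulated cells Mapk12 (p38γ), a dim gene detected on 2 of 4 arrays in LPS+DMSO and on 4 of 4 in LPS+cordycepin, was higher by 1.62 (adjusted p = 0.000343), while 0 of the 10 MAP kinases fell. Map3k2 was higher by 0.87 (adjusted p = 0.000168), while Map3k9, well above background on 4 of 4 arrays in LPS+DMSO and on 1 of 4 in LPS+cordycepin, fell by 1.56 (adjusted p = 0.00231) and Map3k14 (NIK, of the noncanonical NF-kB pathway) fell by 0.77 (adjusted p = 0.000111). Mapkapk2 fell by 0.50 (adjusted p = 0.000744), and it had a call in the interaction (-0.64, adjusted p = 0.0366). The phosphatase nearest to a call there, Dusp2, stood at -0.56 (adjusted p = 0.0506), and the difference between these genes was not tested. With cordycepin alone Map3k8 (Tpl2), which carries the LPS signal to ERK, was higher by 0.48 (adjusted p = 0.00454). In the same comparison Map3k14 fell by 0.70 (adjusted p = 0.00036) and Map3k9, then well above background on 2 of 4 arrays, fell by 2.33 (adjusted p = 8.7e-05). Mapk12, detected on 2 of 4 arrays in DMSO and 4 of 4 in cordycepin, was higher there too, by 1.58 (adjusted p = 0.000567). Mapk7 fell there by 0.34 (adjusted p = 0.0169). Mapk12 passed the filter on dim probes only through the conditions with cordycepin, and Map3k9 only through those without it. The changes of Mapk12 and Map3k9 with cordycepin are therefore not independent of the filter.

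The other phosphatases of the pathway stand beside the same share of all genes, 14.9% with LPS. With cordycepin, 7.55% of all genes were lower without LPS and 8.45% with it. Of 10 other dual-specificity phosphatases tested, 0 rose with LPS and 1 fell, Dusp28, which fell by 0.40 (adjusted p = 0.00622), and with cordycepin 1 was lower, Dusp11, which fell by 0.39 without LPS (adjusted p = 0.0248) and fell by 0.40 with it (adjusted p = 0.019). Of 7 other phosphatases that can act on MAP kinases, Ppm1d fell by 0.58 with LPS (adjusted p = 0.000393). Ppm1b fell by 0.58 with cordycepin alone (adjusted p = 0.000534) and fell by 0.49 with cordycepin in LPS-stimulated cells (adjusted p = 0.00187). The median changes with LPS were -0.14 and 0.09.

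Of 11 transcripts known to depend on ERK, 7 rose with LPS and 0 fell, where 5.14% of all genes rose, and their median was 1.57. Among them were Ier3 (5.02, adjusted p = 1.88e-11) and Fos (4.67, adjusted p = 9.13e-12). Egr1, not well above background on any DMSO array, was at least 15.7-fold higher (adjusted p = 3.02e-09). Egr1 and Myc, both in this list, passed the filter on dim probes only through conditions with LPS. Their higher level with LPS is therefore not independent of the filter. In LPS-stimulated cells 4 of the 11 were lower with cordycepin and 1 higher, beside 8.45% and 10.8% of all genes, and the median was 0.16. Myc fell by 1.92 (adjusted p = 0.00425), Fosl1 fell by 0.97 (adjusted p = 0.0242) and Ier3 fell by 0.72 (adjusted p = 0.00573). With cordycepin alone 1 was higher, Epha2 by 0.80 (adjusted p = 0.00975), and 0 were lower, beside 8.23% and 7.55% of all genes. Of 7 Sprouty and Spred genes, feedback inhibitors of ERK, 2 were tested, and Spred1 fell by 0.75 with cordycepin alone (adjusted p = 0.00208) and fell by 0.74 with cordycepin in LPS-stimulated cells (adjusted p = 0.00171). The LPS receptor Tlr4 and its partner Cd14, both in the macrophage list, changed as well: with LPS Tlr4 fell by 0.75 and Cd14 rose by 1.12 (adjusted p = 5.01e-05 and 4.42e-06). With cordycepin alone Tlr4 fell by 0.39 (adjusted p = 0.00953), and with cordycepin in LPS-stimulated cells Cd14 fell by 0.44 (adjusted p = 0.011), and their part in the phosphatase changes was not tested.

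**Figure D4:**
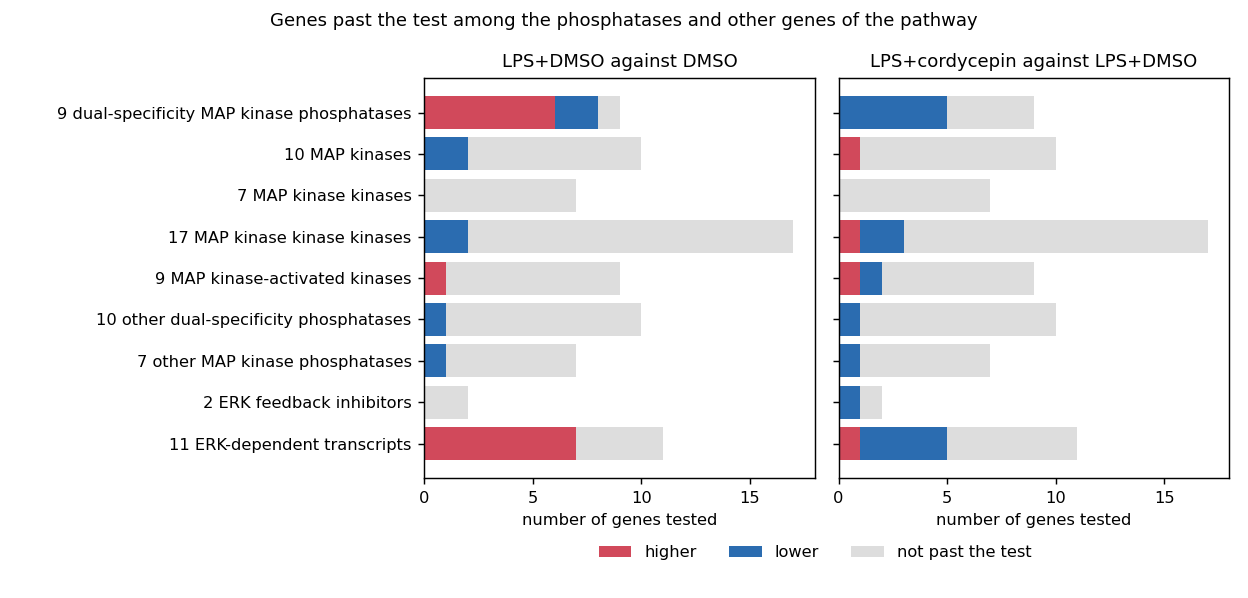
Number of genes that were higher (red), lower (blue) or not past the test (grey) with LPS, on the left, and with cordycepin in LPS-stimulated cells, on the right, for the 9 phosphatases and 8 other lists of pathway genes, with the number tested before each name. With LPS, the phosphatases (6 higher, 2 lower) and the ERK-dependent transcripts (7 higher) hold most calls, and the 7 MAP kinase kinases hold 0 in both comparisons.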

How the data were processed

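Total RNA of RAW264.7 cells was measured on 16 Agilent 1-colour arrays, 4 per condition, with conditions and replicate numbers from the labels. The authors scanned the arrays with Agilent Feature Extraction 10.10.1.1 (submitters' processing notes), and the deposited scanner files hold a processed spot intensity after subtraction of background and spatial trend, not scaled between arrays. The deposited value table holds log2 values of 23730 probes, scaled between arrays by a method not given in the sources used here, and 10 of the 12 phosphatase probes; the processing notes also name limma.

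The processed intensity was log2-transformed, outlier spots were left out (108 to 237 per array) and spots of a probe averaged. As the scale of each array, the 75th percentile was taken over those 18064 probes that the software found well above background throughout. A probe was kept (21597 in all) when 1 condition or more had it well above background on its 4 arrays, and the brightest stood for its gene. A single limma fit (3.58.1, R 4.3.3) of 4 means used every array, with Benjamini-Hochberg adjustment over 15877 genes. A bound ("at least") sets the bright group's mean against the lowest signal well above background on each array of the dim group. Probe positions are those of the files (mm9), whereas promoters come from RefSeq (GRCm38.p6).

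The members, gene lists, motifs and tests were chosen with earlier results of these data known. Named genes are the 9 members, for each list and comparison at most the 3 genes past the test with the largest change, and the 3 genes nearest in pattern to each member that LPS changed. On simulated arrays for LPS+DMSO against DMSO with 15877 genes, 87.4% of genes changed by 1 on the log2 scale and 95.6% of those changed by 2 were recovered.

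Per the labels, cultures of a replicate number share a day and a plate. The mean correlation of residuals was 0.20 for arrays sharing a number (20 of 24 pairs over 0.1), 0.11 within a slide across numbers and -0.25 between slides. Replicates 1 and 2 of all conditions were on one slide and 3 and 4 on the other, and day and slide were each tried as a block. Other alternatives were the normalization, background correction (normexp, offset 50), filter, probe summary, deposited value table, threshold, methods' univariate test, and omission of each day and array. Files were read and plots drawn in Python 3.11.15 (matplotlib 3.10.9, pandas 2.3.3, numpy 2.4.6). The number of arrays limits the precision of each change. One marker of other cell types is not reported here.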

Additional observations from a re-analysis of the deposited data

Results flagged for a closer look

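Within single conditions, 5 of 36 sets of 4 arrays (9 genes in 4 conditions) had 1 array far from the other 3 by Dixon's test at the 95% level, where chance marks about 1 in 20. In DMSO, replicate 2 was high for Dusp4 (log2 signal 11.35, others 10.61 to 10.69) and low for Dusp7 (9.11, others 9.93 to 9.99). Dusp7 was also low in replicate 2 of LPS+cordycepin (8.81, others 9.29 to 9.32), a culture of the same day. Replicate 2 of cordycepin was high for Dusp6, though by only a little (11.14, others 11.03 to 11.04). Dusp10 was high in replicate 1 of cordycepin (5.48, others 3.67 to 3.89), the one array of that condition on which it was well above background. What set these arrays apart was not tested.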

How the results depend on the processing

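Of the 24 changes past the test, 0 changed sign under any alternative run and 13 kept their call in all of them. Scaling to 7 spiked-in control probes ended 10 calls. With it the median of all genes in LPS+cordycepin against cordycepin was -0.36, against -0.05 in the main fit. Other settings ended calls for Dusp1 (cordycepin alone), Dusp5 (LPS in cordycepin) and Dusp7 (LPS without and, most often, with cordycepin). With spike scaling 0 members were past the test for cordycepin alone, 2 for LPS+cordycepin against LPS+DMSO and 5 for LPS+cordycepin against cordycepin; with a 2-fold minimum the first 2 counts were 0 and 2. In the interaction 1 member, Dusp2, was past the test with quantile normalization, median scaling, the authors' value table, the mean of a gene's probes, the replicate block, the slide as a block, and an intensity trend with robust estimation. The replicate block changed no other call. Leaving out 1 day or array gave 0 to 1 members there.

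Signs turned only among changes that were not past the test. For the Dusp6 interaction the value was -0.005 (quantile normalization), -0.010 (the 75th percentile over all probes), -0.006 (the authors' value table) and -0.162 (spikes), and for that of Dusp7 -0.085 (spikes). With cordycepin alone Dusp8 was -0.077 (normexp), -0.085 (authors' table) and -0.275 (mean of probes), and Dusp16 0.153 (mean of probes). Leaving out days or arrays gave -0.481 to 0.054 for the Dusp1 interaction, -0.170 to 0.069 for Dusp6 in LPS+cordycepin against LPS+DMSO, -0.069 to 0.170 for the Dusp6 interaction, -0.145 to 0.160 and -0.148 to 0.384 for Dusp7 and Dusp8 with cordycepin alone, and -0.584 to 0.320 for the Dusp10 interaction. The cause of these changes was not tested.

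The methods' univariate test called 3687 of 15877 genes at p under 0.05 and 1528 after adjustment for LPS, with 8 and 7 of the 9 members. For cordycepin alone it called 4037 and 1904 genes, with 3 and 2 members. For LPS+cordycepin against LPS+DMSO the counts were 4359 and 2559 genes, with 6 and 5 members. For LPS+cordycepin against cordycepin they were 3097 and 1108 genes, with 8 and 7 members. Signals near background limit Dusp5, Dusp8 and Dusp10, and Dusp5 and Dusp10 are not in the authors' value table used here.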
